A study of Vulpes vulpes with 48 samples.

Results

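Poly(A) RNA-seq was used to profile the brain of silver foxes (Vulpes vulpes) of 2 lines, of which one was bred for tameness and the other for aggression. The genes described here are those that the deposited count table of the right basal forebrain lists and that of the right prefrontal cortex does not. There were 394 such genes among the 13202 genes of either table, and the 300 with the highest mean CPM over the 22 forebrain libraries were taken as members, chosen by their listing in the tables and their mean level. CPM is the count of a gene per 1000000 counts of its library. The forebrain libraries came from 10 tame and 12 aggressive male foxes aged 1.5 years, and the columns are named by fox. The labels also name tame libraries ID488 and ID490, not analysed here. No treatment, strain mark or batch is given in the labels, so the lines differ, as far as the labels tell, by selection alone.

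The basal forebrain lies at the underside of the cerebral hemisphere and holds the large cholinergic projection neurons, beside neurons that release GABA, glutamate or neuropeptides. It borders the striatum, the septum, the preoptic area and the hypothalamus. The prefrontal cortex is a layered tissue of mainly glutamatergic projection neurons and GABA-releasing interneurons. Neuropeptides and the transcription factors that set up ventral brain regions are textbook examples of genes read in one of these tissues and hardly in the other. Which of the members are such genes could not be read from the data: the tables give dog Ensembl identifiers without symbols, and 0 of the 300 members matched the RefSeq table of the fox (assembly VulVul3). Members are therefore given by identifier, with no position, function or sequence, and the tissue could not be checked against its markers.

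Listing in the tables is itself a measured value. Every gene of the cortex table reached 1 CPM in at least 6 of its 24 libraries, and every gene of the forebrain table did so in at least 6 of 22. A gene absent from the cortex table can thus have been read in cortex below such a floor, and no cortex value of a member was analysed here. The level in forebrain chose the members and is described without a test. Deposited counts included fractions for 15 members, where reads can be shared with another gene, and 6 members form 3 pairs with identical values in every library. Each identical pair counts as 2 members throughout.

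The forebrain libraries held 6.25 to 13.6 M counts (M, units of 1000000; median 9.80 M). Totals averaged 10.3 ± 1.85 M in tame foxes (SD, n = 10) and 10.1 ± 2.07 M in aggressive foxes (SD, n = 12). Over the members, several libraries were often the lowest or the highest. Tame library ID541 had the lowest value of the 22 libraries for 63 of the 300 members (21.0%), against 10.4% of the 12695 genes listed in both tables. Aggressive library ID530 was lowest for 41 members (13.7%, against 7.37%). Tame library ID483 had the highest value for 85 members (28.3%, against 18.1%), and tame library ID485 for 44 (14.7%, against 7.66%). ID483 was also lowest for 23 members (7.67%, against 19.1%). Their totals were 7.25 M counts in ID541, 13.6 M in ID530, 12.6 M in ID483 and 12.4 M in ID485, and the part of depth was not tested. ID541, ID530 and ID483 were left out together as a check, and ID485 was left out on its own in the comparison of the lines.

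Most members were read at a low level. Their median mean level was 1.64 CPM, or 17.02 counts per library, against 32.9 CPM and 336 counts over the whole forebrain table. Between 1 and 2 CPM lay 174 members, between 2 and 5 CPM lay 73, between 5 and 20 CPM lay 39, and above 20 CPM lay 14. The 10 highest members held 41.4% of all counts of the group and the 50 highest held 69.3%. CPM is not divided by gene length, which is unknown here, so this order is one of read numbers and not of transcript numbers.

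The last member inside the cut, ENSCAFG00000004425, had a mean of 1.006 CPM, and the first gene outside it, ENSCAFG00000009941, a mean of 1.004 CPM. The limit of 300 therefore fell at about the 1 CPM floor. All 22 libraries reached 1 CPM for 57 members. The median member did so in 17 libraries, and 37 members did so in fewer than 12. No member lacked such libraries in a whole line (0 members for tame and 0 for aggressive), and 20 members had a count of 0 in at least 1 library, at most in 4.

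**Figure D1:**
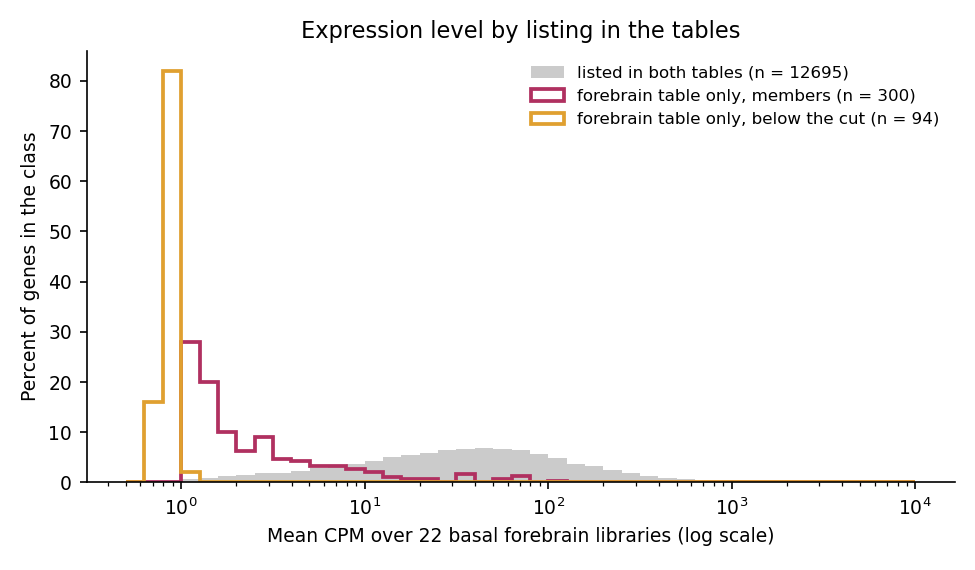
Distribution of the mean CPM over 22 basal forebrain libraries (x axis, log scale) as the percent of genes in each class (y axis), for 12695 genes listed in both tables, the 300 members and the 94 other genes listed only in the forebrain table. Members pile up just above 1 CPM, and 14 of them lie above 20 CPM.

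The member with the most reads was ENSCAFG00000008550. In tame libraries it ran from 31.1 CPM, in ID483, through a median of 107 to 242 CPM, and in aggressive libraries from 44.8 through 118 to 245 CPM. The lines overlapped over nearly their whole ranges, with means of 116 ± 63.3 CPM (SD, n = 10) and 131 ± 56.3 CPM (SD, n = 12). A gene absent from the cortex table thus reached up to 3147 counts in a forebrain library, and at least 280 counts in each.

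ENSCAFG00000020401 followed, from 19.0 CPM in ID483 through a median of 87.0 to 120 CPM in tame libraries and from 39.3 through 83.6 to 123 CPM in aggressive libraries. Tame libraries ID483 and ID541, at 19.0 and 27.3 CPM, lay below all aggressive libraries, and the other 8 tame libraries lay within the aggressive range. Without ID483, ID541 and ID530 its means were 95.0 ± 17.9 CPM in the tame line (SD, n = 8) and 81.7 ± 25.8 CPM in the aggressive line (SD, n = 11), against 80.6 ± 34.2 (SD, n = 10) and 78.1 ± 27.4 CPM (SD, n = 12) with them.

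ENSCAFG00000008546 was the third by level. It ran from 18.7 CPM in ID541 through a median of 74.1 to 146 CPM in tame libraries and from 37.8 through 79.1 to 131 CPM in aggressive libraries. Again the 2 lowest libraries of all were ID541 and ID483, and the rest of the lines overlapped. Its means were 75.3 ± 38.9 CPM in the tame line (SD, n = 10) and 79.6 ± 27.1 CPM in the aggressive line (SD, n = 12). Their order turned without ID483, ID541 and ID530, at 87.5 ± 32.7 CPM (SD, n = 8) and 78.3 ± 28.03 CPM (SD, n = 11).

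These 3 leading members did not all vary together. Over the 22 libraries, log2 CPM of ENSCAFG00000008550 and ENSCAFG00000008546 correlated at r = 0.810 (two-sided permutation p = 1e-05, the smallest that 100000 shuffles can give, adjusted p = 3e-05 over 3 pairs) with a Spearman rho of 0.677 (permutation p = 0.00078, adjusted p = 0.00234). The correlation was 0.873 within tame and 0.709 within aggressive libraries, and 0.759 without the 2 libraries farthest from the median of the first gene, ID483 and ID532. Both genes share libraries and depth. ENSCAFG00000020401 followed neither: r was 0.417 with ENSCAFG00000008550 and 0.439 with ENSCAFG00000008546 (permutation p = 0.0534 and p = 0.0426, adjusted p = 0.0534 for both), with rho of 0.153 and 0.135 (permutation p = 0.496 and p = 0.545, adjusted p = 0.545 for both). The latter correlation rested on ID541 and ID483, without which r was -0.14. Within lines these correlations were 0.797 and 0.760 in tame and -0.21 and -0.27 in aggressive libraries; the difference between the lines was not tested.

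Between foxes of the same line, the median spread of members lay above that of other genes in the same range of mean CPM. The spread is given as the SD of log2 CPM within lines, pooled over both lines. Its median over the 300 members was 0.654 log2 units, against 0.216 over the 12695 genes of both tables. As spread falls with the level, genes were set side by side in ranges of mean CPM. Between 1 and 2 CPM the medians were 0.587 for members and 0.497 for genes of both tables. From 2 to 5 CPM they were 0.767 and 0.412, and from 5 to 20 CPM they were 0.955 and 0.275. Above 20 CPM the 14 members had a median of 0.703 and the 8212 genes listed in both had 0.176. The gap was smallest in the lowest range, which holds most members. Within each range the members lay lower, at median levels of 1.28 against 1.55, 2.89 against 3.34, 7.55 against 11.5 and 46.9 against 62.9 CPM. The 37 genes of both tables under 1 CPM had a median SD of 0.592, near the 0.587 of members between 1 and 2 CPM. The part of the level within a range was not tested. These are descriptions of the groups with no test, and the part of counting error was not tested.

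The order of the classes held without 3 of the libraries that were often extreme. Without ID483, ID541 and ID530 the medians of members were 0.560, 0.655, 0.848 and 0.484 log2 units in the same 4 ranges, against 0.474, 0.379, 0.251 and 0.160 for genes of both tables. With all 22 libraries, an SD above 1 log2 unit was found for 60 members (20%) and for 1.37% of genes of both tables. By level these shares were 13.8% and 7.28% between 1 and 2 CPM, 23.3% and 4.28% from 2 to 5 CPM, 43.6% and 1.89% from 5 to 20 CPM, and 14.3% and 0.548% above 20 CPM. Over all levels, among the 280 members with a count in every library, the highest library exceeded the lowest by a median of 7.67-fold, and by more than 10-fold for 106 members (37.9%). Over the 12659 such genes of both tables the median was 1.85-fold, and 2.67% exceeded 10-fold. The larger SD was the tame one for 177 members (59.0%), close to the 62.9% of genes of both tables. In bulk tissue, fewer cells of a type and less RNA per cell cannot be told apart.

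**Figure D2:**
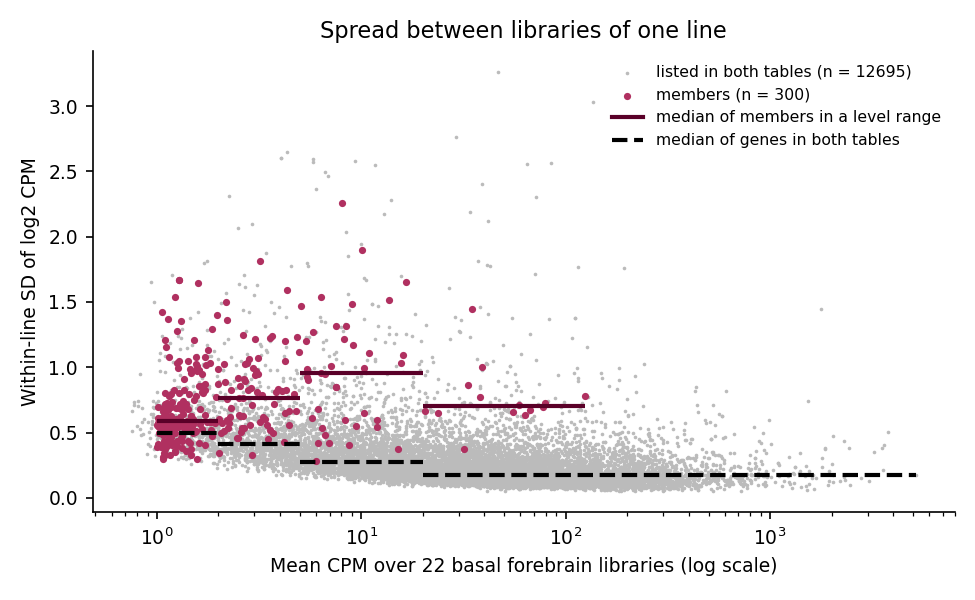
Within-line SD of log2 CPM (y axis) against mean CPM over 22 basal forebrain libraries (x axis, log scale), 1 point per gene, for members (red) and genes listed in both tables (grey), with the median of each class in 4 level ranges as lines. From 5 to 20 CPM the members' median is 0.955 and the grey genes have a median of 0.275.

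The 3 members with the largest spread are described next as extremes and not as typical members, whose median SD was 0.654 log2 units. ENSCAFG00000009215 ran from 0.138 CPM in ID541 through a median of 3.06 to 54.8 CPM in ID483 among tame libraries, where the next highest library held 12.9 CPM. Among aggressive libraries it ran from 0 in ID540 through 7.70 to 24.2 CPM in ID531. Tame library ID483 lay far above the rest of its line, and ID541, ID540, ID530 and ID538 lay at 0.239 CPM or less. Its SD was 2.26 log2 units.

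ENSCAFG00000010772 was high in most libraries and nearly absent in a few. Its tame values ran from 0.138 CPM in ID541 through a median of 13.3 to 21.4 CPM, and the second lowest tame library held 5.27 CPM. Aggressive values ran from 0.312 CPM in ID540 through 8.80 to 17.2 CPM, with ID530 at 0.366 and ID538 at 0.478 CPM. These 4 libraries lay below 1 CPM and the other 18 above it. ENSCAFG00000012698 had a count of 0 in ID541, ID530 and ID538, and reached 10.6 CPM in tame library ID485 and 6.92 CPM in aggressive library ID534. Its medians were 3.48 CPM in the tame and 2.90 CPM in the aggressive line.

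The same libraries recurred across members. After centring each line, the leading axis of the members' log2 CPM held 30.1% of their variance, scaled per gene, and that of genes of both tables held 24.3%. A correlation above 0.5 with this axis was found for 122 members, and one below -0.5 for 21. These 2 groups were formed from the values themselves and are given as a description only. Library ID541 scored -4.86 on the axis, ID530 scored -3.43 and ID538 scored -2.74, while ID483 scored 3.29, ID531 scored 2.93 and ID485 scored 2.81. Since each line was centred first, both lines hold low and high scores by construction, and the scores do not compare the lines. Without ID483, ID541 and ID530 an axis recomputed in the same way held 25.2%, with 105 members above 0.5 and 21 below -0.5.

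Summed over the 122 members, tame libraries ran from 170 CPM in ID541 through a median of 592 to 1261 CPM in ID483, and aggressive libraries from 213 CPM in ID530 through 576 to 1016 CPM in ID531. The means were 692 ± 321 CPM for the tame line (SD, n = 10) and 586 ± 245 CPM for the aggressive line (SD, n = 12), and the lines overlapped. With ID483, ID541 and ID530 left out they were 687 ± 217 CPM (SD, n = 8) and 620 ± 225 CPM (SD, n = 11). The 21 members that varied the opposite way summed to between 47.8 and 259 CPM in tame libraries and between 98.7 and 324 CPM in aggressive libraries. For them ID541 was the highest tame library and ID538 the highest aggressive one, and the lowest tame libraries were ID486 at 47.8 CPM and ID483 at 49.7 CPM. ENSCAFG00000009215, ENSCAFG00000010772 and ENSCAFG00000012698 belong to the 122, with correlations of 0.885, 0.845 and 0.905 to the axis, which their own values helped to set. The 3 members with the most reads do not, at -0.14, 0.20 and 0.11 in order of level.

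Over all pairs of members, the median correlation within lines was 0.103. A correlation above 0.5 was found in 13.5% of pairs and one below -0.5 in 3.59%. Over pairs of genes of both tables these shares were 7.48% and 6.56%, with a median of -0.0052. Leaving out ID483, ID541 and ID530, the members' median was 0.071, with 9.51% of pairs above 0.5 and 3.28% below -0.5, against 6.63% and 6.03% of pairs of genes of both tables. Genes are not independent replicates, and these values carry no test.

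**Figure D3:**
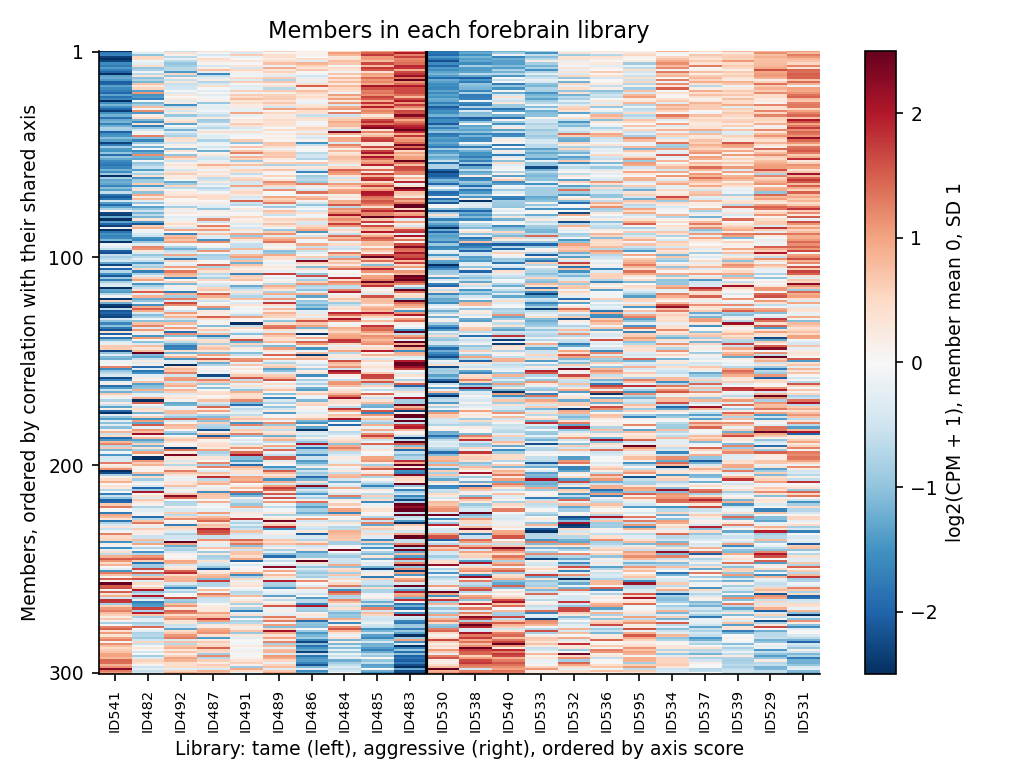
log2(CPM + 1) of the 300 members (rows, scaled to mean 0 and SD 1 per member, ordered by their correlation with the shared axis) in 22 basal forebrain libraries (columns), 10 tame on the left and 12 aggressive on the right, each ordered by axis score. The upper rows change from low in ID541 to high in ID483 among tame libraries and from low in ID530 to high in ID531 among aggressive libraries, and the lowest rows change the other way.

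The question put by the study, whether selection for behaviour goes with gene expression, was asked of the members in the forebrain. The 2 lines were compared with the quasi-likelihood test of edgeR over 12915 genes of the forebrain table, and p-values were adjusted over all of them. The filter on low counts kept 279 of the 300 members, and the 21 members it left out had means from 1.006 to 1.72 CPM. No member passed an adjusted p of 0.05 (0 of 279 in edgeR's test), where 0.0929% of all tested genes did. An unadjusted p under 0.05 was found for 25 members (8.96%), against 11.5% of all tested genes. Of these, 17 were higher in tame foxes (6.09%, against 5.74%) and 8 lower (2.87%, against 5.8%). The members' share lay near, and below, that background and is not a result about them. DESeq2 called 1 of 279 members, where it called 54 of 12915 genes (0.418%). Limma-voom called 0 members, where it called 13 genes (0.101%). In 0 of 279 members were the lines without overlap, and this held for 0% of all tested genes.

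Over all levels together, the members' fold changes were larger and less certain than those of other genes. The median absolute log2 fold change was 0.25 with a median standard error (SE) of 0.28, against 0.10 and 0.09 over all tested genes. Of the members, 4 had an absolute log2 fold change over 1 (1.43%, against 0.209% of all tested genes). Between 1 and 2 CPM, which held 153 of the tested members, the median absolute log2 fold change was 0.24 for members and 0.19 for genes of both tables, and the median SE was 0.27 and 0.23. The median absolute log2 fold change was 0.28 and 0.17 from 2 to 5 CPM, 0.24 and 0.12 from 5 to 20 CPM, and 0.18 and 0.08 above 20 CPM. The median SE was 0.31 and 0.18 from 2 to 5 CPM, 0.38 and 0.12 from 5 to 20 CPM, and 0.26 and 0.07 above 20 CPM. An unadjusted p under 0.05 was found for 0 of 14 members above 20 CPM and 2 of 39 from 5 to 20 CPM. From 2 to 5 CPM it was found for 9 of 73, and between 1 and 2 CPM for 14 of 153. The share over all tested genes was 11.5%. Shares of other genes in these ranges were not computed, so no pattern with level is read from these counts. Among the 20 members with the most reads the smallest adjusted p was 0.469 (edgeR).

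The sign of the fold changes leaned to tame. It was positive for 65.9% of the 279 members, against 52.8% of all tested genes, and the median was 0.14 against 0.01. The lean depended most on library ID483. Without it the median over members was 0.05, without ID485 it was 0.09, without ID541 it was 0.20, and without ID483, ID541 and ID530 together it was 0.08. With 4 surrogate variables in the model it was -0.0043. The 142 tested members that belonged to neither group on the shared axis had a median of 0.06. Along the axis the sign was positive for 102 of 117 tested members, with a median of 0.28. Against it the sign was positive for 1 of 20, with a median of -0.35. Members that vary together are not independent, so the share of 65.9% does not count separate events.

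**Figure D4:**
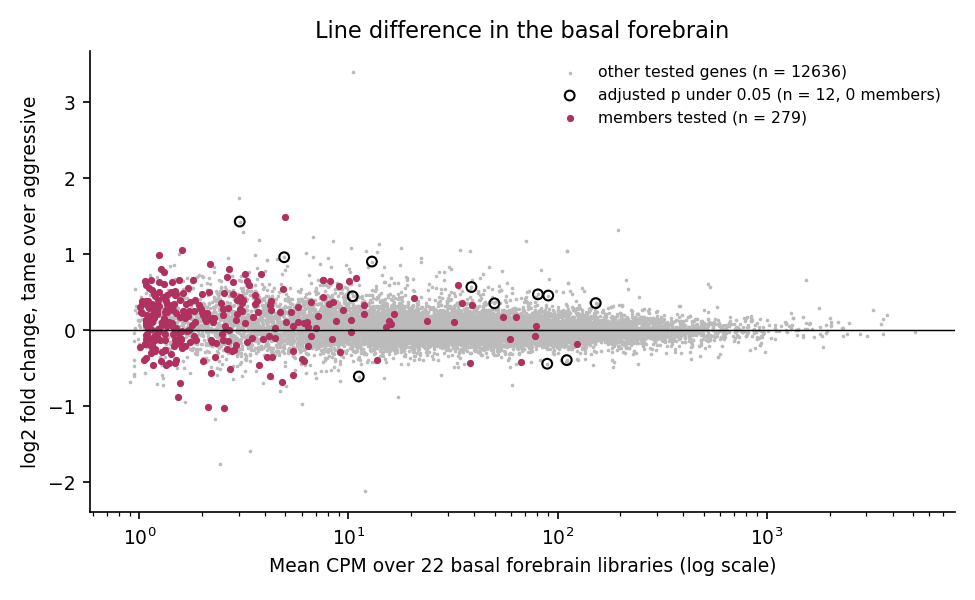
log2 fold change of tame over aggressive in the basal forebrain (y axis) against mean CPM (x axis, log scale) for 279 tested members (red) and the other tested genes (grey), with the 12 genes of adjusted p under 0.05 circled. None of the circled genes is a member, and the median absolute log2 fold change of members is 0.25.

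ENSCAFG00000024807 had the smallest p among members. In tame libraries it ran from 0.633 CPM in ID483 through a median of 1.26 to 2.29 CPM, and in aggressive libraries from 1.31 through 2.77 to 4.06 CPM. No tame library lay above the aggressive median (0 of 10), although the ranges overlapped between 1.31 and 2.29 CPM. The means were 1.36 ± 0.518 CPM (SD, n = 10) and 2.78 ± 0.979 CPM (SD, n = 12). The fitted log2 fold change was -1.01 ± 0.23 (SE; adjusted p = 0.131 in edgeR). DESeq2 gave it -1.02 with an adjusted p of 0.0191. It was the single member call of that tool, which called 54 of 12915 genes (0.418%). The filter of DESeq2 left 104 of the 279 members without an adjusted p. Over all alternatives the adjusted p of ENSCAFG00000024807 ran from 0.0191 to 0.283. Its counts ran from 7 to 51 per library.

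ENSCAFG00000008205 was the next among members lower in tame libraries. Its within-line SD of 0.284 log2 units was low only beside other members. From 5 to 20 CPM the members' lower quartile was 0.597, and the median of genes of both tables was 0.275. Tame values ran from 4.14 CPM in ID541 through a median of 5.10 to 6.36 CPM, and aggressive values from 4.25 through 6.38 to 9.91 CPM. Again 0 of 10 tame libraries exceeded the aggressive median, and the highest aggressive libraries lay above all tame ones. The fitted log2 fold change was -0.37 ± 0.13 (SE; adjusted p = 0.325 in edgeR).

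ENSCAFG00000018819 led the members higher in tame libraries. Tame values ran from 0.827 CPM in ID541 through a median of 5.03 to 18.6 CPM in ID485, with 17.7 CPM in ID483, and aggressive values ran from 0.586 CPM in ID530 through 2.56 to 6.33 CPM. The 3 highest tame libraries, ID485, ID483 and ID486, held 12.1 CPM or more, the next tame library held 7.27 CPM, and 8 of 10 exceeded the aggressive median. The means were 7.61 ± 6.35 CPM (SD, n = 10) and 2.77 ± 1.74 CPM (SD, n = 12). The fitted log2 fold change was 1.50 ± 0.44 (SE; adjusted p = 0.246 in edgeR). It varied along the shared axis, with a correlation of 0.866, and with surrogate variables its log2 fold change was 0.73.

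ENSCAFG00000013184 ran from 0.668 through a median of 1.73 to 2.83 CPM in tame libraries and from 0.160 through 0.803 to 2.03 CPM in aggressive libraries. At or above 1 CPM were 8 of 10 tame and 3 of 12 aggressive libraries, so it stood near the floor in the aggressive line. The fitted log2 fold change was 0.997 ± 0.31 (SE; adjusted p = 0.261 in edgeR), and its correlation with the shared axis was near 0, at -0.0039. An unadjusted p under 0.05 in edgeR was found for 15 of the 142 tested members of neither group. It was found for 9 of 117 along the axis and 1 of 20 against it. The share over all tested genes was 11.5%, and no pattern with the axis is read from these counts.

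For the members with the most reads the line difference was small beside its error. The log2 fold change was -0.17 (SE 0.30) for ENSCAFG00000008550, 0.06 (SE 0.26) for ENSCAFG00000020401 and -0.07 (SE 0.26) for ENSCAFG00000008546, with edgeR adjusted p of 0.805, 0.926 and 0.911. For the 3 most variable it was 0.35 (SE 0.79) for ENSCAFG00000009215, 0.65 (SE 0.56) for ENSCAFG00000010772 and 0.74 (SE 0.62) for ENSCAFG00000012698, with edgeR adjusted p of 0.855, 0.616 and 0.606. The sign for ENSCAFG00000009215 was not stable. Its log2 fold change was -0.85 without ID483. With all 22 libraries it was -0.24 with limma-voom and -1.05 with surrogate variables.

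**Figure D5:**
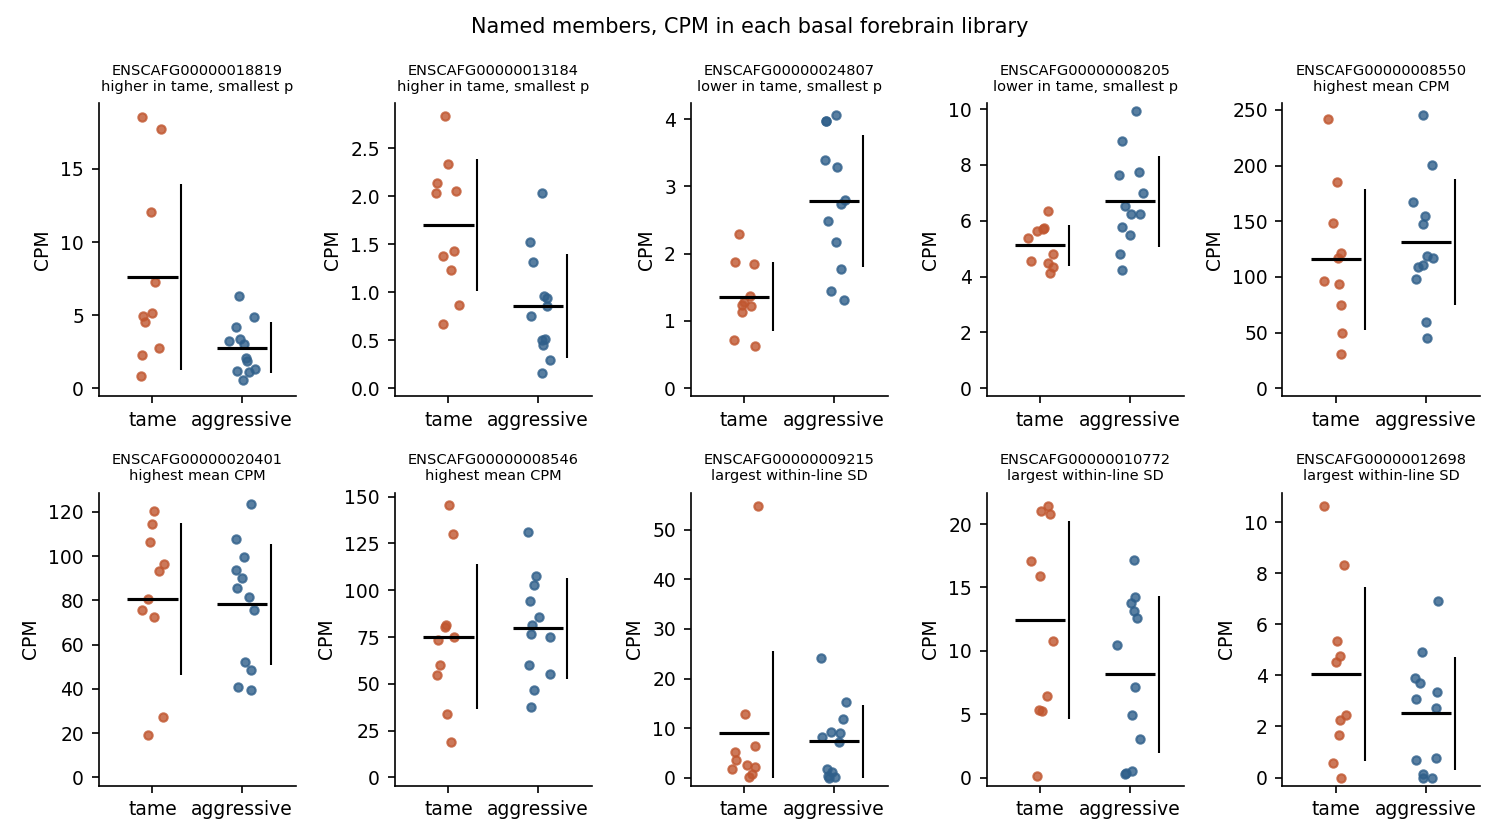
CPM (y axis) of 10 named members in each of 10 tame and 12 aggressive basal forebrain libraries (points), with the mean (horizontal bar) and SD (vertical bar, ended at 0 where it would go below). The lines overlap in every panel, and ENSCAFG00000009215 has a single tame library at 54.8 CPM.

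Summed over all members, the lines did not part. The 300 members held 1581 ± 376 CPM in tame libraries (SD, n = 10), from 839 CPM in ID541 through a median of 1632 to 2125 CPM in ID485. In aggressive libraries they held 1506 ± 250 CPM (SD, n = 12), from 1036 CPM in ID530 through 1548 to 1875 CPM in ID531. That is 0.158% and 0.151% of the counts. The tame range enclosed the aggressive one, and the difference of the means was smaller than either SD. Without ID483, ID541 and ID530 the means were 1631 ± 289 CPM (SD, n = 8) and 1549 ± 211 CPM (SD, n = 11). In a single library between 173 and 262 members reached 1 CPM, fewest in ID530 and ID541 (173 and 178) and most in ID484.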

How the data were processed

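The authors deposited 1 table of estimated counts per dog gene for each tissue, with dog Ensembl identifiers per the file headers. The submitters' processing notes list CASAVA 1.8.2, FastQC, Trimmomatic, BWA, bedtools and edgeR and the build canFam3, without their roles. How reads were assigned to genes is not given in the sources used here. If reads of near-identical genes were split or doubled, their counts carry that. The tables are limited to genes that reach 1 CPM in at least 6 libraries.

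Counts were rounded to whole numbers. Genes were kept with filterByExpr (minimum count 10), scaled with trimmed means of M-values (TMM; factors 0.978 to 1.02) and tested with edgeR 4.0.16 (glmQLFit with robust=TRUE, glmQLFTest, R 4.3.3), line being the single term, with Benjamini-Hochberg adjustment over 12915 genes and a threshold of 0.05. The fit was also run on simulated counts, drawn independently for each gene and library. Those counts held no shared axis and no outlying libraries, so that run does not cover such data. Levels are CPM on the deposited totals, and spread uses TMM-scaled log2 CPM (prior count 2). Correlations of 3 pairs of members used 100000 shuffles. Alternatives used DESeq2 1.42.0, limma 3.58.1 and sva 3.50.0.

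The members and all tests and alternatives were chosen with earlier results of these data known. Named by rule were the 2 members higher and the 2 lower in tame foxes with the smallest p, the 3 with the most reads, the 3 with the largest spread and the genes at the limit of 300. Libraries ID483, ID541 and ID530 were left out together as an alternative chosen after seeing the data. Preset lists of gene symbols (cholinergic, neuropeptide, patterning factor, receptor, monoamine, choroid plexus, ependyma, blood, meninges and pituitary) could not be applied, since no identifier was paired with a symbol. Cortex counts were used only for the list of genes. Intervals on single counts are not given, since the SD between libraries holds counting error too.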

Additional observations from a re-analysis of the deposited data

Results flagged for a closer look

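Of 20 values checked in the 10 tame forebrain libraries, 1 had a library far from the others. A nominal rate of 1 in 20 does not measure chance here, as the same check flagged 12.4% of genes of both tables. The flagged gene was also named for having the largest spread, a choice that favours such a library. ENSCAFG00000009215 stood at 54.8 CPM in library ID483, where the next tame library held 12.9 CPM, a gap of 0.767 of the whole range. The same check over all 300 members found 52 with such a tame library (17.3%), in 36 of them ID483 on the high side (12%). Over the 12695 genes of both tables the shares were 12.4% and 7%. Each member shares its libraries with the others, so these flags are not independent.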

How the results depend on the processing

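The lines were compared without pairing, since the tame and aggressive libraries came from different foxes. Other scalings, filters, robust=FALSE and whole counts gave 11 or 12 called genes, 0 called members and 24 to 26 members at an unadjusted p under 0.05. These were 8.67% to 9.09% of the members tested, against 11.3% to 11.7% of all tested genes. DESeq2 called 54 genes (25 higher and 29 lower in tame) and 1 member, ENSCAFG00000024807; its own filter gave fewer genes an adjusted p. Surrogate variables gave 29 genes and 0 members, and leaving out ID483, ID541 and ID530 together gave 7 genes and 0 members; for these the cause was not tested. Limma-voom gave 13 genes and 0 members. In the 22 fits that each left out 1 library, 8 to 16 genes and 0 members in each fit were called. An unadjusted p under 0.05 was found for 19 to 35 members. The fewest were without ID483 (6.76%, against 8.38% of all tested genes) and the most without ID541 (12.3%, against 14.7%). The members' median absolute log2 fold change ran from 0.19 to 0.31. The 300 genes with the highest median CPM, or all 394, held 0 called genes.

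Signs were followed only for the named members, of which edgeR called none in the main fit, and changed as follows. With limma-voom, surrogate variables and without the 3 libraries, in this order, the log2 fold change was 0.0167, 0.0063 and 0.0055 for ENSCAFG00000008550, 0.00036, 0.0098 and 0.16 for ENSCAFG00000008546, and -0.24, -1.05 and -0.83 for ENSCAFG00000009215. Leaving out single libraries gave -0.23 to 0.0395 for ENSCAFG00000008546, -0.85 to 0.70 for ENSCAFG00000009215 and -0.0247 to 0.17 for ENSCAFG00000020401. The cause was not tested.

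The members' median SD of 0.654 was 0.723 with a prior count of 0.5 and 0.589 without the 3 libraries. Without the 10 highest members the summed means were 956 CPM for the tame and 859 CPM for the aggressive line, fewer genes being summed. The members' median SE was 0.27 between 1 and 2 CPM and 0.26 above 20 CPM, and what depth limits was not tested.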

Other observations

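The 94 genes listed only in the forebrain table that fell outside the 300 had means from 0.652 to 1.004 CPM, with a median of 9.02 counts per library. They reached 1 CPM in a median of 8 and at most 11 of the 22 libraries. The filter kept 12 of them, 0 passed an adjusted p of 0.05 in edgeR's test (smallest adjusted p = 0.378), and 1 had an unadjusted p under 0.05. Their median within-line SD was 0.599 log2 units, against 0.654 for the members. ENSCAFG00000009941, the first of them by level, was not tested. Its mean was 0.701 ± 0.271 CPM for tame libraries (SD, n = 10) and 1.26 ± 0.437 CPM for aggressive ones (SD, n = 12), with 0 of 10 tame values over the aggressive median.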
